A study of Caenorhabditis elegans with 2 samples.

Results

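The histone genes described here are the 72 protein-coding genes of Caenorhabditis elegans whose symbol is his- and a number, out of 19973 protein-coding genes on the 6 nuclear chromosomes. Membership rests on the symbol alone, and no measured value enters that rule. For each gene the strongest peak with its summit between 1000 bp upstream and 200 bp downstream of a transcript start was taken from the thresholded peak list, and otherwise from the list of pooled candidates, which holds background regions on purpose. Annotated products sort the members into 17 H2A, 16 H2B, 15 H3, 5 H3.3, 16 H4 and 1 linker histone H1 gene, and 2 genes for short proteins with a histone domain, his-39 and his-73. The symbol his-24 belongs to the linker histone gene. The H3.3 genes are his-69, his-70, his-71, his-72 and his-74.

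The measurements come from chromatin immunoprecipitation and sequencing of whole larvae at L4, the last stage before adulthood, of the hermaphrodite strain OP470 (unc-119(tm4063) III; wgIs470). The strain carries a stable transgene in which duxl-1, a homeobox gene, is fused to a C-terminal GFP-FLAG tag, and sonicated chromatin was precipitated with an antibody against GFP. The 2 samples are biological replicates, and the design holds no second condition to compare them with. The control used by the authors in peak calling is not analysed here, and a peak in a promoter window need not mark binding of tagged DUXL-1 there.

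Histones are the proteins around which DNA is wrapped: H2A, H2B, H3 and H4 form the core of the nucleosome, and H1 binds the linker DNA between nucleosomes. Core histone genes are transcribed chiefly while DNA is replicated, and in C. elegans they lie in clusters in which an H2A gene and an H2B gene, or an H3 gene and an H4 gene, are often transcribed away from each other from a shared stretch of DNA. H3.3 is a variant that is deposited independently of replication. Homeodomain proteins bind DNA, and many of them recognise words built on TAAT.

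Sequences are given for 6 of the 8 distinct thresholded peaks at histone genes, since a pair of short words recurs in them, and for the matching stretch of 2 divergent pairs that had no region between their starts. All are plus-strand sequence of build ce11 (WBcel235), read 5′ to 3′ from the RefSeq genome file, from 50 bp before to 50 bp after the summit, widened where needed to hold the words and kept 40 bp clear of a gene start. Capitals mark the words TGTGTCCC and CCCCGCAG and their reverse complements, which overlap by 3 bases where they run together. Both words were picked after the sequences of these peaks had been seen, so their recurrence among them is a description. Of the peaks not printed, his-67/his-68 holds both words and his-42 neither. The windows lie at chrV:9546972-9547064 for his-37, chrV:16040607-16040723 for his-4/his-3 and chrIV:7486298-7486463 for his-61/his-62. Those of his-24, his-31/his-32 and his-6/his-5 lie at chrX:14489973-14490053, chrIV:8334118-8334218 and chrV:8535091-8535173. The comparison stretches at chrV:8533178-8533294 (his-8/his-7) and chrV:16042397-16042479 (his-2/his-1) sit at the same distances from the left gene's start as the windows of his-4/his-3 and his-6/his-5.
his-37: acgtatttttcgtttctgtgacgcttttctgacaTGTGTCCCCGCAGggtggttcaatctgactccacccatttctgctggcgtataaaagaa
his-4/his-3: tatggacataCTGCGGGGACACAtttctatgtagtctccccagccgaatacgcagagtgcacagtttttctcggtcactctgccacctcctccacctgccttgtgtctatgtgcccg
his-61/his-62: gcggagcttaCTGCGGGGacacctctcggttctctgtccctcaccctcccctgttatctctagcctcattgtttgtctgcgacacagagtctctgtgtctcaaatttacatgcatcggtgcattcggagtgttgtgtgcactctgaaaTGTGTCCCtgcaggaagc
his-24: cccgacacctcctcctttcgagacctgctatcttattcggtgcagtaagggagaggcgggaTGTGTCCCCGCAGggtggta
his-31/his-32: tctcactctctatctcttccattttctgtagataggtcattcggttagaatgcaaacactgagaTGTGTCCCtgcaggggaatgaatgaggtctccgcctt
his-6/his-5: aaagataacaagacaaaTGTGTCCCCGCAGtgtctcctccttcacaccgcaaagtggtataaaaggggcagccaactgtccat
his-8/his-7: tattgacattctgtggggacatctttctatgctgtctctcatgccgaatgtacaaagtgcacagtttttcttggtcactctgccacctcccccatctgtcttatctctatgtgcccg
his-2/his-1: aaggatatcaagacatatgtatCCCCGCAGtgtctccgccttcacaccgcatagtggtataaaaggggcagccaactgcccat

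Of the 72 histone genes, 13 (18.1%, 95% Wilson interval 10.9 to 28.5) had a thresholded peak in the promoter window, against 1343 of the 19973 protein-coding genes (6.72%). The Wilson intervals cover counting error over genes only, and divergent genes that share a peak are not independent. The 13 genes shared 8 distinct peaks. Another 11 histone genes (15.3%) had only a pooled candidate, drawn from 10 distinct candidates, and 48 (66.7%) had no pooled region at all. Any pooled region was found for 24 of the 72 histone genes (33.3%, interval 23.5 to 44.8), against 39.2% of protein-coding genes. Histone genes thus had thresholded peaks at a higher share than protein-coding genes as a whole, while their share with any pooled region was lower and its interval included that of all genes. No test of either difference was made. Of the 48 genes without a pooled region, 6 had a candidate in the list of a single replicate, and 42 had none in any of the 3 candidate lists.

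The signal is the enrichment the authors' peak caller gave a region, and it is used here to describe and rank regions within 1 list. The lowest signal in the thresholded list of 1980 peaks was 65.0, and the 1965 nuclear peaks had a median of 94.2. The 8 histone peaks had a median signal of 90, and 4 of them lay above the nuclear median. The 1028 distinct thresholded peaks at promoters of protein-coding genes had a median of 97.4. Histone promoters therefore held both peaks near the top of the list and peaks close to its lower limit. The weakest member inside the limit was the his-6/his-5 peak at 71.1, and the strongest candidate outside it, at his-35, had a signal of 60.8.

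**Figure D1:**
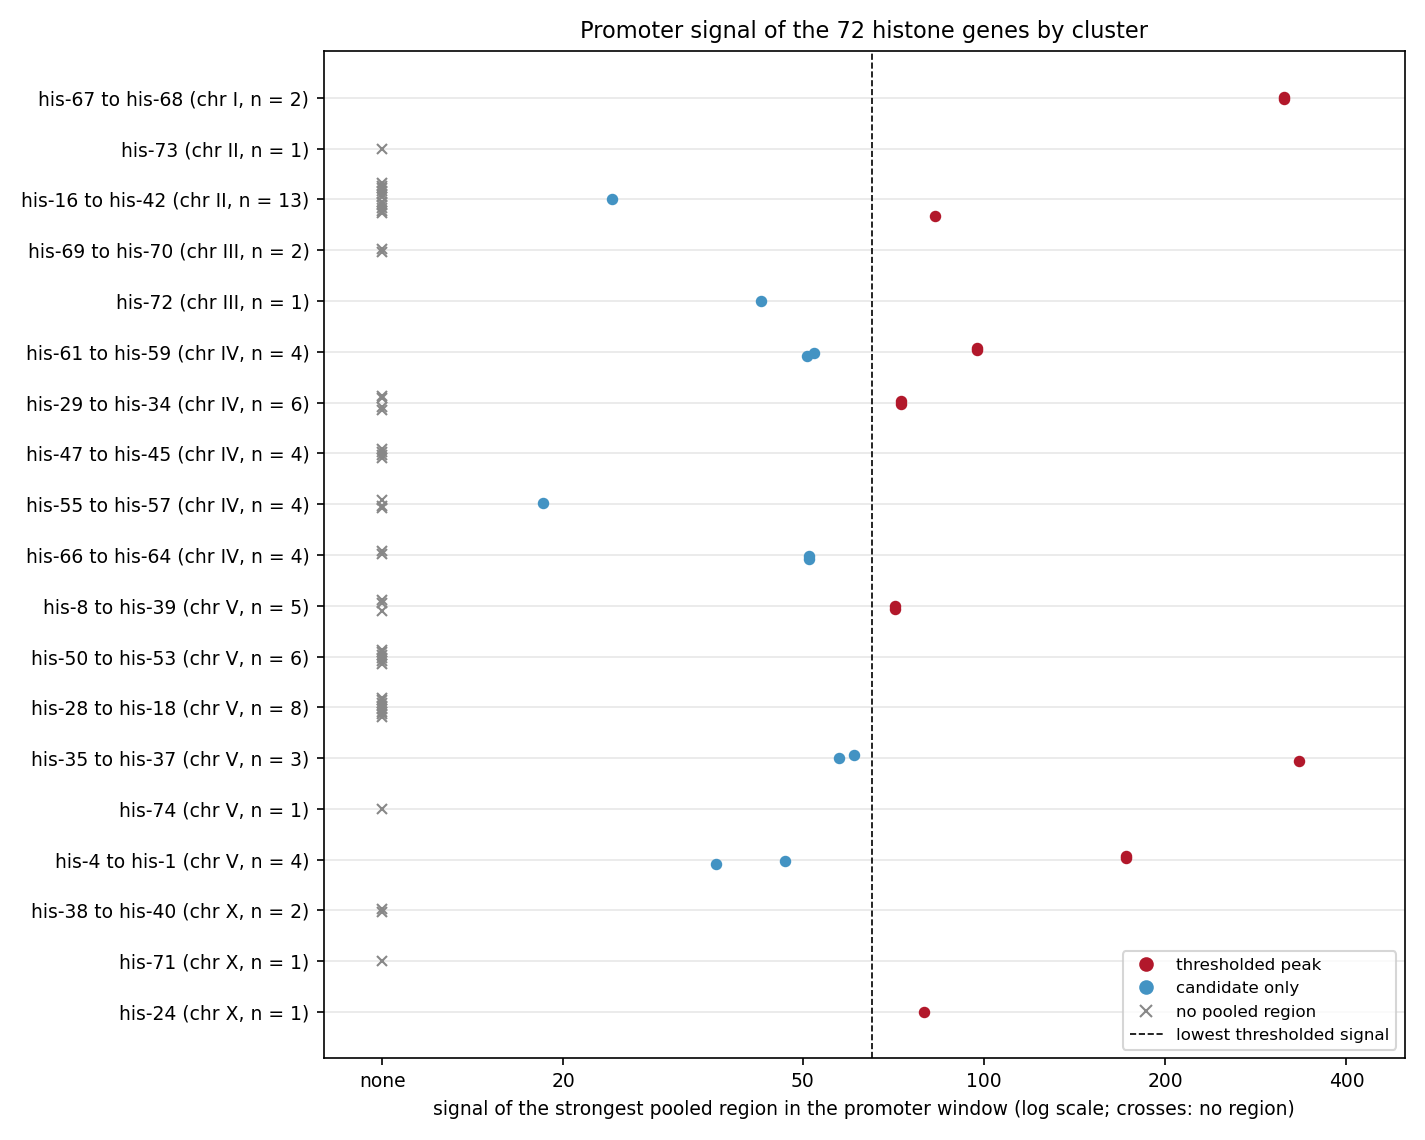
Signal of the strongest pooled region in the promoter window of each of the 72 histone genes (x axis, log scale, authors' peak caller units), in rows by genomic cluster with chromosome and number of genes; crosses at the left mark genes without a pooled region. The 13 genes with a thresholded peak lie right of the dashed line at 65.0 and are spread over 8 clusters or lone genes, while clusters such as his-28 to his-18 hold crosses only.

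The strongest histone peak lay upstream of his-37, a gene for H4. The peak spans chrV:9546924-9547116, 193 bp, with its summit 83 bp upstream of the start and in sequence between genes. Its pooled signal was 334, which ranked 72 among the 1980 thresholded peaks and 57 among the nuclear ones. Replicate 1 gave a signal of 177 (rank 69 in its own list) and replicate 2 a signal of 152 (rank 87). Both replicates thus placed this peak among their strongest candidates. His-37 is 1 of 7 histone genes with more than 1 exon and lies next to, but outside, the divergent pair his-35/his-41.

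The second strongest lay between his-67, an H4 gene, and his-68, an H2A gene, on chromosome I. This peak spans chrI:9988890-9989100, with a pooled signal of 315 and rank 78. The replicates gave signals of 196 (rank 65) and 114 (rank 171), again among the strongest of both lists. The start of alg-5, an Argonaute gene, lies 806 bp away, so the peak also falls in the window of that gene and its assignment to the histone pair alone was not tested. This was the only divergent histone pair that joined H2A with H4.

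The his-4/his-3 peak came next, lying between an H2B and an H2A gene on chromosome V. It spans chrV:16040578-16040715 and had a pooled signal of 172 (rank 294), with 103 (rank 219) in replicate 1 and 65.0 (rank 539) in replicate 2. The his-61/his-62 peak, between an H2A and an H2B gene on chromosome IV, spans chrIV:7486247-7486526 and had a pooled signal of 97.3 (rank 929). Its signals were 63.8 (rank 655) in replicate 1 and 42.5 (rank 1199) in replicate 2. Both peaks stood among the 1980 strongest candidates of each replicate, and the nearest start of a protein-coding gene that is no histone gene lay 3753 bp from the his-4/his-3 summit and 5377 bp from the his-61/his-62 summit.

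The remaining 4 peaks lay in the weaker part of the list. The his-42 peak (chrII:13829198-13829477, 82.8, rank 1248) had signals of 60.4 in replicate 1 and 52.1 in replicate 2. Its summit lay 641 bp upstream of his-42, an H3 gene, inside an exon of the small nuclear RNA gene C47F8.9 and of the non-coding RNA gene R05D7.8, and 30% of its positions were unique by the measure described further on. Which of these genes the peak belongs to cannot be told apart here, and without it 12 histone genes and 7 distinct peaks remain. At the other 7 peaks the nearest tRNA, snoRNA or snRNA gene lay between 3740 and 166747 bp from the summit.

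The his-24 peak (chrX:14489883-14490162, 79.6, rank 1331) lay 71 bp upstream of the H1 gene, with its summit in an exon of the non-coding RNA gene M163.19. It had a signal of 28.4 (rank 3475) in replicate 1 and 40.6 (rank 1310) in replicate 2. The his-31/his-32 peak, between an H4 and an H3 gene (chrIV:8334028-8334307, 72.9, rank 1578), had 38.9 (rank 1790) and 34.5 (rank 1860). The his-6/his-5 peak, between an H3 and an H4 gene (chrV:8535001-8535280, 71.1, rank 1661), had 27.4 (rank 3788) and 37.1 (rank 1598). Replicate 1 therefore ranked the his-24 and his-6/his-5 peaks below its 1980 strongest candidates, while replicate 2 kept all 8 histone peaks among its own.

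**Figure D2:**
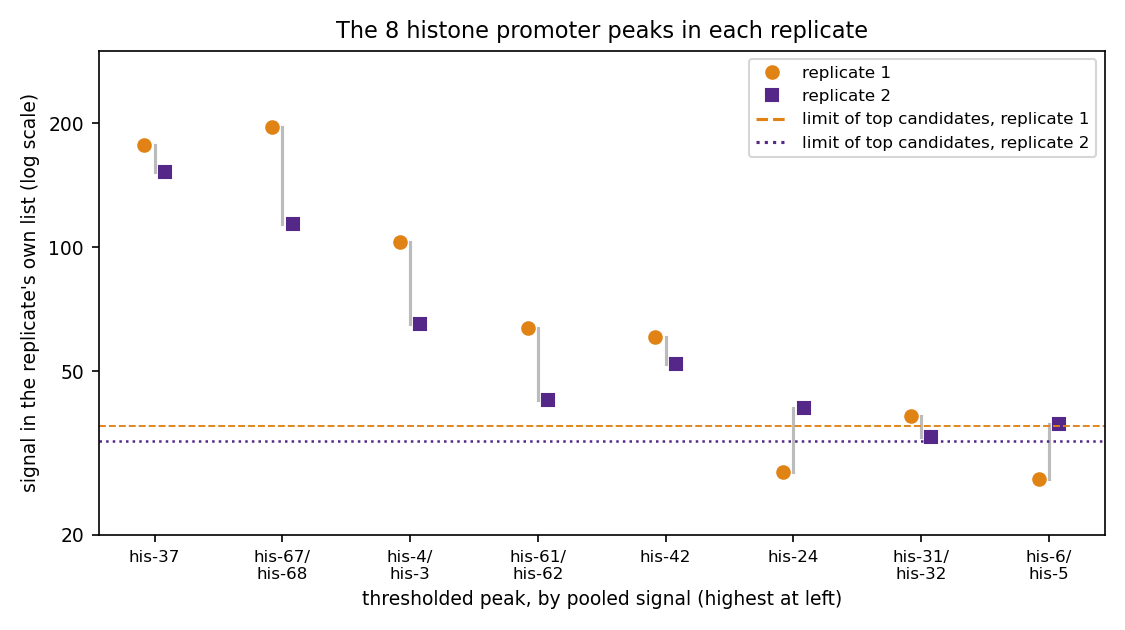
Signal of the 8 distinct thresholded peaks at histone gene promoters in replicate 1 (circles) and replicate 2 (squares), on a log axis in the units of each replicate's own candidate list, ordered by pooled signal. The dashed and dotted lines mark the weakest of the 1980 strongest candidates of replicate 1 (36.7) and replicate 2 (33.8); the his-24 and his-6/his-5 circles fall below the dashed line.

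By histone type, thresholded peaks were found at core histone genes and at the H1 gene. They were present at 3 of 17 H2A genes, 2 of 16 H2B genes, 3 of 15 H3 genes, 4 of 16 H4 genes and the H1 gene. H4 genes also held the most candidates, at another 5 of 16, which left 7 without a region. These candidate summits lay 89 bp upstream at his-64, but 586 bp at his-60, 807 bp at his-56, 962 bp at his-10 and 977 bp at his-1. All but the his-64 summit thus lay past the start of the neighbouring H3 gene, so the count of H4 candidates is not one of summits in the shared promoter. H3 genes had candidates at another 3 of 15, whereas H2A and H2B genes had a candidate at 1 gene each. Regions were absent from 13 of the 17 H2A and 13 of the 16 H2B genes. Over all protein-coding genes, 6.72% had a thresholded peak and 39.2% any pooled region. The types also differed in how much of their promoter windows is unique in the genome, by the measure described further on, with a median of 3.0% of positions for H2A, 18.3% for H2B, 37.1% for H3 and 38.3% for H4 genes. The part of this in the counts by type was not tested, nor was any difference between types.

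None of the 5 H3.3 genes had a thresholded peak, and his-72 alone had a candidate, with a pooled signal of 42.6, 34.0 in replicate 1 and 23.5 in replicate 2. Its summit lay 150 bp upstream of the nearest start. His-69, his-70, his-71 and his-74 had no pooled region, nor did the short-protein genes his-39 and his-73. The H3.3 promoter windows were not short of unique sequence, with 86.6 to 100% of positions unique by the same measure. With 5 genes, a share of H3.3 genes with peaks below that of the core histone genes is not shown.

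The strongest candidate outside the threshold lay 991 bp upstream of his-35 (H2A) with 60.8, beyond the neighbouring gene his-41. The divergent pair his-35/his-41 (H2A and H2B) had another candidate between its starts with 57.4, which reached 41.7 (rank 1239) in replicate 2 but 17.9 (rank 9643) in replicate 1. His-60, an H4 gene, had a candidate of 52.1 that lay 586 bp upstream, inside the neighbouring H3 gene his-59. Another candidate, of 50.7, lay between the starts of his-60 and his-59. The pair his-63/his-64 (H3 and H4) shared a candidate of 51.2, with 25.9 in replicate 1 and 29.8 in replicate 2. His-2, an H3 gene, had a candidate of 46.7, 769 bp upstream of its start and not between his-2 and his-1. The other 3 genes with only a candidate had signals between 18.5 and 35.8.

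In the genome, 67 of the histone genes fell into 14 clusters, with neighbouring starts at most 10000 bp apart, and 5 stood alone. Both genes on chromosome I had a thresholded peak, which they share, as did 1 of 14 on II, 0 of 3 on III, 4 of 22 on IV, 5 of 27 on V and 1 of 4 on X. Over all protein-coding genes, 6.72% had a thresholded peak and 39.2% any pooled region. Promoter windows also differed in unique positions, by the measure described further on. Their medians were 92.8% on I, 0.0% on II, 99.4% on III, 23.6% on IV, 37.1% on V and 93.1% on X. The part of this in the counts by chromosome and cluster was not tested. The clusters differed widely. In 4 of them every gene had a pooled region: his-67 to his-68, his-61 to his-59, his-35 to his-37 and his-4 to his-1. The largest cluster, 13 genes from his-16 to his-42 on chromosome II, had 1 thresholded gene, his-42 at its edge, and 1 candidate gene. No region was found at the 8 genes from his-28 to his-18 or at the 6 genes from his-50 to his-53, both on chromosome V. No thresholded summit lay inside a cluster but outside every promoter window of its genes, while 3 of the 19 pooled summits inside clusters did. The windows cover much of the clusters, so these counts had little room to differ.

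The histone genes form 31 divergent pairs of neighbours, which hold 62 of the 72 genes, with 228 to 369 bp (median 259) between the annotated starts. In 66 of the 72 genes the annotated start is the first coding base, so these intervals include any transcribed leader. A summit between the starts was found in 8 pairs, 5 of them thresholded and 3 candidates. The same share over all divergent pairs of protein-coding genes was not computed, so this count and later ones between starts have no background beside them. Among 16 pairs of H2A with H2B, 2 had a thresholded peak and 1 a candidate between the starts. Among 14 pairs of H3 with H4 the counts were 2 and 2, and the single pair of H2A with H4 had the his-67/his-68 peak. The thresholded summits lay between 51.8 and 69.2% of the way from the left start to the right one. The candidate summits lay at 51.2% in his-35/his-41, 65.1% in his-63/his-64 and 16% in his-60/his-59.

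Since most histone genes lie in divergent pairs, they were also set beside all genes in divergent pairs with starts at most 1500 bp apart. Of the 62 histone genes in such pairs, 10 (16.1%) had a thresholded peak, against 12.5% of the 4468 protein-coding genes in divergent pairs. Outside the pairs, 3 of 10 histone genes had one: his-37, his-42 and his-24. Taken over all pairs, copies included, the share among paired histone genes was thus nearer to that of divergent genes than to the 6.72% of all protein-coding genes.

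Many histone genes of the same type have near-identical copies elsewhere in the genome, and Ensembl gives only 50 distinct symbols to the 72 genes. For each promoter window the percent of positions whose word of 36 bases occurs once in the genome, on either strand, was computed as a measure of how well a short read could be placed there. The median was 24.6% over the histone genes and 100% over all protein-coding genes, and 20 histone genes had no unique position at all. Windows with under 50% unique positions made up 56.9% of the histone genes and 2.86% of all protein-coding genes. Whether the authors' peak calls used only reads that map to 1 place, and how long the reads were, is not given in the sources used here.

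All thresholded peaks at histone genes, and most candidates, lay in windows with at least 50% unique positions. The his-42 peak itself had 30% unique positions, in a promoter window with 68.6%. Genes with a thresholded peak had a median of 84.8% unique positions (55.8 to 100), genes with only a candidate 84.1% (17.1 to 99.4) and genes with no region 3.0% (0 to 100). Among the 41 histone genes under 50%, none had a thresholded peak, against 1.05% of 571 such protein-coding genes, and 3 had any region (7.32%), against 5.43%. Among the 31 histone genes with at least 50% unique positions, 13 (41.9%) had a thresholded peak, against 6.89% of 19402 protein-coding genes with such windows. In that class 21 of 31 histone genes (67.7%) had any pooled region, against 40.2%. For divergent pairs alone, 10 of 21 histone genes with such windows (47.6%) had a thresholded peak, against 12.9% of 4316 genes. A gene without a peak in a repeated window is therefore not shown to lack one, and the part of read placement in these counts was not tested.

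**Figure D3:**
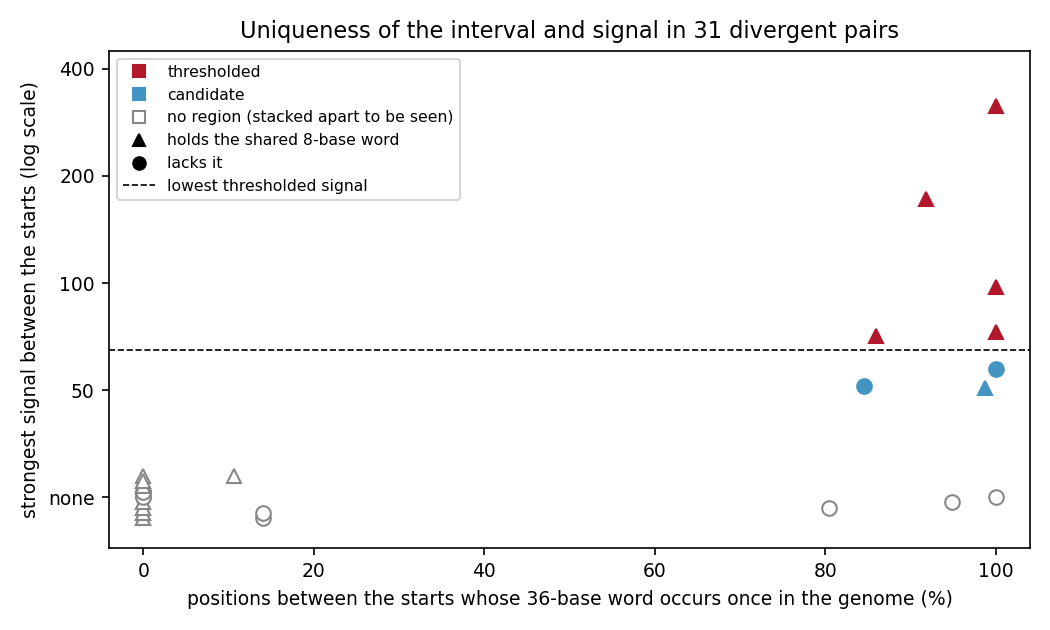
Strongest signal between the starts of each of the 31 divergent histone gene pairs (y axis, log scale; open symbols at the bottom have no region and are moved apart to be seen) against the percent of positions between the starts whose 36-base word occurs once in the genome (x axis). The 20 pairs at 0 to 14.0% have no region, and the 8 pairs with a peak or candidate lie among the 11 at 80.5 to 100%; triangles hold the word TGTGTCCC.

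The same split was seen for the stretch between the starts of a pair. In 20 of the 31 pairs 0 to 14.0% of those positions were unique, and none of these pairs had a region between its starts. The other 11 pairs had 80.5 to 100% unique positions, and 5 of them had a thresholded peak, 3 a candidate and 3 no region. The 3 without a region were his-2/his-1, his-38/his-40 and his-8/his-7. Several of the repeated pairs were identical between the starts, such as the 3 pairs his-10/his-9, his-14/his-13 and his-25/his-26 over 272 bp.

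The word TGTGTCCC was found, on either strand, in 7 of the 8 histone peaks, his-42 being the exception, and in 14 of 1957 other nuclear peaks (0.715%). CCCCGCAG was found in 6 of the 8 and in 10 of the 1957 (0.511%). The middle of TGTGTCCC lay 1 bp from the summit at his-67/his-68, 13 bp at his-37, 14 bp at his-24, 17 bp at his-31/his-32 and 30 bp at his-6/his-5. At his-4/his-3 and his-61/his-62 the distances were 48 and 62 bp. The sequences above show both words joined at his-37, his-4/his-3, his-24 and his-6/his-5, and apart at his-61/his-62. At his-31/his-32 only TGTGTCCC is present. The his-67/his-68 peak, not printed, holds both, with the middle of the nearest CCCCGCAG 4 bp from the summit. As the words were chosen on these peaks, these shares cannot serve as evidence for them.

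Both words were also present at histone promoters without a peak. Within the 300 bp before the start, TGTGTCCC was found at 42 of the 72 histone genes and at 86 of 19901 other protein-coding genes (0.432%). CCCCGCAG was found at 26 of 72 and at 24 of 19901 (0.121%). Of the 42 histone genes with TGTGTCCC, 12 had a thresholded peak, and of the 86 other genes with it, 9 (10.5%) had one. Of the 26 histone genes with CCCCGCAG, 10 had a thresholded peak, and of the 24 other genes, 2 (8.33%). Over all protein-coding genes the share with a thresholded peak was 6.72%. Because the words were picked from the histone peaks, the histone counts cannot be weighed against those of other genes. Most genes with either word, histone genes included, had no thresholded peak. The 42 histone genes include those of 14 divergent pairs with TGTGTCCC in a stretch between the starts with 0 to 10.6% unique positions. No region was called between the starts of these 14 pairs, and the part of read placement in these counts was not tested.

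Among the 11 pairs with unique sequence between the starts, 6 held TGTGTCCC there, of which 5 had a thresholded peak and 1, his-60/his-59, a candidate. The 5 pairs without the word had 0 thresholded peaks, 2 candidates and 3 without a region. Among the 20 repeated pairs, 14 held the word and none had a region. The his-8/his-7 stretch printed above matched that of his-4/his-3 at 82.9% of 117 positions, with 20 differences, and held neither word. That of his-2/his-1 matched his-6/his-5 at 91.6% of 83 positions, with 7 differences, and held CCCCGCAG but not TGTGTCCC. The pairs his-4/his-3 and his-6/his-5 had thresholded peaks of 172 and 71.1 between their starts, and the pairs his-8/his-7 and his-2/his-1 had no region there. With 11 pairs, and words chosen on 5 of them, this is a description of these pairs.

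**Figure D4:**
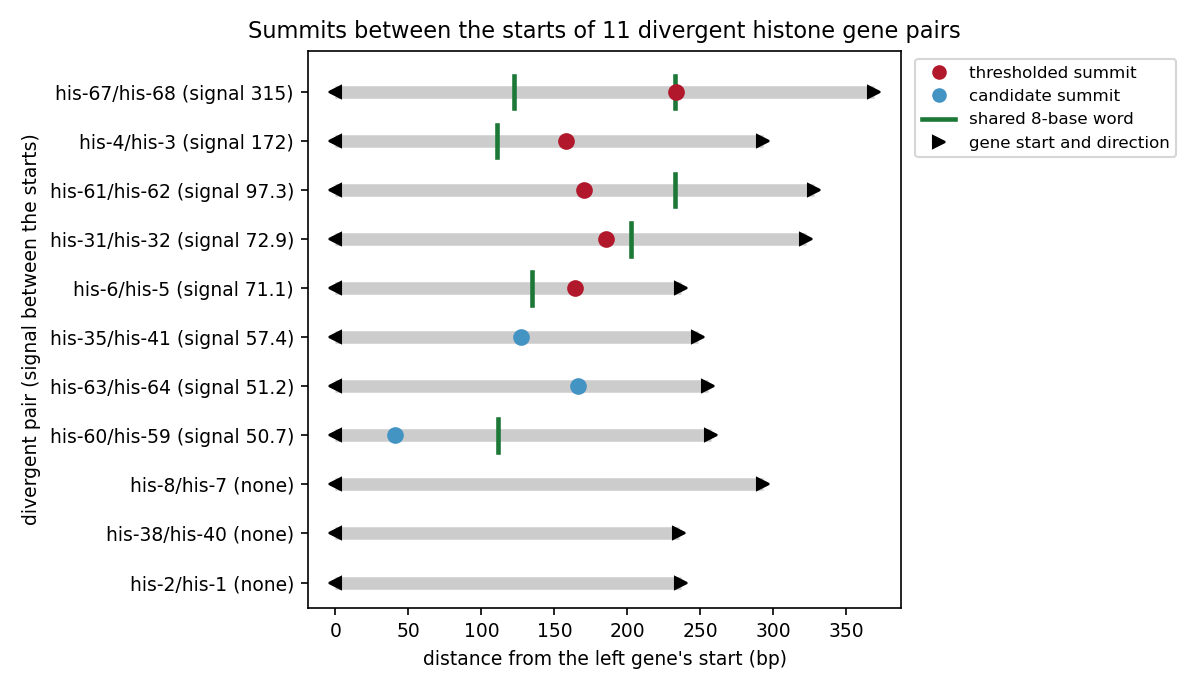
Interval between the starts of the 11 divergent histone gene pairs with mostly unique sequence (grey bars, in bp from the left gene's start; arrowheads show the direction of transcription), from the strongest signal at the top to pairs without a region. Circles mark summits and green bars the word TGTGTCCC, which is present in the 5 pairs with thresholded peaks and in his-60/his-59. The word was picked from the thresholded histone peaks. At his-60/his-59 the summit lies 41 bp and the word 108 bp from the left start.

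None of 6 words known from other promoters or homeodomain sites was found at more than 2 of the 8 summits. Within 50 bp of a summit, TAAT, the core of many homeodomain sites, was found at 0 of 8 histone peaks, against 41.0% of the 1965 nuclear peaks. It was found in 4 of 16 windows centred 300 bp to either side of the histone summits, against 65.5% of such side windows over all nuclear peaks, and in 68.4% of windows of the same length before all protein-coding starts. At the peaks between divergent histone genes, both side windows lay inside those genes. What the side windows of other peaks overlap was not counted, so the 2 sets of side windows may be unlike. TAATCA was found at 0 of 8, against 3.46%. TATAAA, a core promoter word, was found at his-37 and his-6/his-5, against 4.83% of nuclear peaks and 14.2% of promoter windows. CCAAT was found at 1 of 8 (his-24), against 17.3%, and GAGAGA at 1 of 8 (his-67/his-68), against 21.1%. GGCGGG was found at 1 of 8 (his-24), against 5.19%. All words were searched on both strands, and TAATCA contains TAAT. The median GC content of the summit windows was 49% at the histone peaks (45.5 to 63.4) and 47.5% over all nuclear peaks. A missing word says only that those letters are not in the window.

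Genes that handle histones were counted the same way, from a list of 26 genes for linker histones, histone variants, histone chaperones and histone mRNA processing. Thresholded peaks were found at 2 of the 26 (7.69%), a share near the 6.72% of all protein-coding genes, 15 had only a candidate and 9 had no region. Any pooled region was thus found at 65.4% of the list, against 39.2% of protein-coding genes, and no test of this was made. The gene htz-1, for the H2A.Z variant, had a peak of 181, 297 bp upstream of its start, with 68.4 in replicate 1 and 110 in replicate 2, shared with the window of wapl-1. The gene lin-53, for a histone-binding chaperone protein, had a peak of 251, 230 bp upstream, with 103 in replicate 1 and 158 in replicate 2, shared with the window of nra-2. Among the rest, cdl-1, for the protein that binds the stem-loop at the end of histone mRNAs, had a candidate of 46.6. Stronger candidates lay at hira-1 (55.1), unc-85 (53.6), spt-16 (48.9), xnp-1 (48.3) and nap-1 (47.4), and at hil-3, a linker histone gene, with 60.0. The other linker histone genes of the list had candidates of at most 45.5 or none, so of the linker histones only his-24 passed the threshold.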

How the data were processed

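The deposited files are lists of regions called by the authors in builds ce10 and ce11; only the ce11 lists were used. Per the deposited README text, there is a list of peaks with background regions for each replicate and for the pooled replicates (30000 regions pooled), made from the alignments and a control, and a list that passed an irreproducible discovery rate (IDR) threshold. The signal of each region is the enrichment given by the authors' peak caller, as deposited, and the summit is an offset in bp from the region's start, also as deposited. Not given in the sources used here are the aligner, the peak caller, the IDR threshold and the length and number of reads, so depth is unknown. The README text also names tracks of uniquely mapped reads, but not whether peak calling used those reads alone.

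Genes and transcript starts came from Ensembl release 115 and the sequence from the RefSeq genome of WBcel235, which is ce11. Histone genes were named by the RefSeq symbol at the same position, because Ensembl gives identical copies the same symbol. Clusters join members whose neighbouring starts lie within 10000 bp, and a divergent pair is 2 neighbours that face away from each other with starts at most 1500 bp apart. Signals were ranked within a list and not compared between lists. A peak counted as found in a replicate where it overlapped, by at least 1 bp, 1 of that replicate's 1980 strongest candidates.

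No statistical test was made. The counts over all 72 histone genes are set beside the share of all protein-coding genes, with 95% Wilson intervals for the share with a thresholded peak and with any region. Counts by type, chromosome and cluster are descriptions without intervals. Every gene with a thresholded peak is named, and the 8 genes with the strongest candidates only. Alternatives were other windows, the stronger peaks only, overlap in place of the summit, peaks away from small RNA genes, single replicates and other word lengths. The counting steps were tested on simulated data. The members, lists and words were chosen with earlier results of these data known. Software: matplotlib 3.10.9, pandas 2.3.3 and numpy 2.4.6 under Python 3.11.15, with scipy 1.17.1.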

Additional observations from a re-analysis of the deposited data

How the results depend on the processing

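The number of histone genes with a thresholded peak (13, from 8 peaks, against 6.72% of protein-coding genes) was 12 (7 peaks, 5.11%) with a window of 500 bp upstream to 100 bp downstream, and 12 (7 peaks, 3.76%) with 300 bp upstream to 50 bp downstream. With 2000 bp upstream it was 19 (9 peaks, 8.84%). With at least 1 bp of the peak in the window it was 13 (8 peaks, 7.11%), and without peaks within 100 bp of a small RNA gene 12 (7 peaks, 6.16%). Only peaks above the median signal of nuclear peaks, a smaller set by construction, left 7 genes (4 peaks, 3.83%). Leaving out a replicate meant counting the other one's 1980 strongest candidates in place of the thresholded peaks. It gave 12 to 15 genes, 7 to 9 peaks and 6.02 to 6.29% of protein-coding genes. With replicate 1 alone, 6 of the 8 peaks remained. Those of his-24 (rank 3475) and his-6/his-5 (rank 3788) dropped out, and a his-60/his-59 candidate (rank 1973) came in. With replicate 2 alone, all 8 peaks remained and a his-35/his-41 candidate (rank 1239) came in. Genes with any pooled region numbered 24, and 19 with the 500 bp window. In the replicates' own candidate lists a region was found for 24 genes in replicate 1 and 27 in replicate 2, with 21 genes in both. The median of unique positions was 24.6% with words of 36 bases, 26.0% with 50 and 23.5% with 25. No paired analysis was possible because both samples belong to 1 group. A summit within the window need not belong to the gene, the read depth is unknown, and how reads from identical copies were placed, and its part in these counts, was not tested.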
